A study of Pistacia vera with 20 samples.

Results

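Peroxidase genes of the haem peroxidase domain family (Pfam PF00141) were followed in the hull of pistachio, Pistacia vera, the fleshy exocarp and mesocarp that surround the shell. A gene was taken when the domain stood in the deposited gene description, and 96 of the 39783 genes in the expression table met this rule. By the name of the best protein match, 88 were class III peroxidases and 5 were ascorbate peroxidases. The other 3 were 1 thylakoid lumenal protein and 2 genes matched to a riboflavin biosynthesis protein.

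Class III peroxidases are secreted plant enzymes with a haem group. They use hydrogen peroxide to oxidise phenolic compounds, which polymerises lignin and suberin and cross-links wall proteins, and they can also generate reactive oxygen that loosens the wall. Ascorbate peroxidases share the fold but work inside the cell, where they reduce hydrogen peroxide to water with ascorbate as the electron donor.

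Polyadenylated RNA of whole hulls was sequenced in 20 libraries. In the cultivar Golden Hills, hulls that were tattered (n = 3) or intact (n = 3) were sampled 133 days post anthesis, and intact hulls (n = 4) 91 days post anthesis. In the cultivar Lost Hills, hulls that were cracked (n = 3) or intact (n = 3) were sampled at 133 d, and intact hulls (n = 4) at 91 d. All came from trees grown in a commercial orchard. The kind of split differs between the cultivars, so cultivar and tattering against cracking cannot be told apart. The labels call the samples biological replicates without saying which tree each came from, so p-values measure the spread between these samples.

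Values are FPKM, fragment counts scaled by gene length and library size. Depth lay between 16116971 and 18609861 gene-assigned reads per library, and 1 read on a gene of 1 kb stood for about 0.0562 FPKM. Among the 91 d libraries, replicate 2 of Lost Hills carried genes otherwise found in Golden Hills at 36.91% of their Golden Hills level (median of 14 genes). Replicate 2 of Golden Hills carried 12 Lost Hills genes at 27.06%, and replicate 3 carried them at 9.15%, against 0 to 1.18% in the other 91 d libraries. Results at 91 d were therefore also computed without replicate 2 of both cultivars. Replicate 1 stood apart in both intact groups at 133 d, also in tattered hulls and less so in cracked hulls. Its mean chi-square per gene against the other libraries of its group was 58.88 and 58.59 in intact Golden Hills, against 8.89 between these others. In intact Lost Hills it was 65.65 and 52.75, against 15.94. Tattered hulls had 26.08 and 24.04, against 9.94, and cracked hulls had 47.74 and 56.05, against 36.84. At 91 d in Golden Hills, replicate 1 had 27.78, 46.93 and 47.97, against 16.08 to 30.95 between the others, with overlap. Without replicate 1 of intact Golden Hills, 9 members were called in tattered hulls, 17 with age in Golden Hills and 5 between cultivars at 133 d. Without replicate 1 of intact Lost Hills, 8 were called in cracked hulls, 14 with age in Lost Hills and 7 between cultivars at 133 d. In bulk hull RNA, fewer cells of a type and less RNA per cell cannot be told apart.

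A gene was tested when it reached 1 FPKM in at least 3 libraries, which 35 of the 96 members did: 29 class III peroxidases, the 5 ascorbate peroxidases and the thylakoid lumenal protein. No read was assigned to 29 members in any library, and the 32 others had reads but stayed under the filter. Of these 32, 4 reached 1 FPKM in at least 1 library. They were matched to Peroxidase 43, Peroxidase 10, Peroxidase 22 and Peroxidase 5. Of the 35 tested, 5 passed through the libraries of their highest group and would not have passed on the other groups: Lignin-forming anionic peroxidase, Peroxidase 10, Peroxidase 66, Peroxidase 55 and Peroxidase 53 of ptg000011l. A difference between groups was therefore built into the choice of these 5 for testing, so counts of calls are also given over the other 30.

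The 96 members lay on 20 contigs, and 39 of them fell into 13 groups of neighbours no more than 50 kb apart. In these groups 9 of 39 members were tested (23.1%), against 26 of the 57 members that stood alone (45.6%). The largest group held 8 genes in 52.3 kb of contig ptg000027l, from 1144467 to 1196781. One end of it was Cationic peroxidase 1 (evm_TU_ptg000027l_148, ptg000027l, 1144467 to 1146450, plus strand), the only 1 of the 8 that was tested, with 13669 reads over the 20 libraries. The other 7 genes had 5 reads between them. How reads shared by near copies were counted is not given in the sources used here, so values of neighbouring copies are uncertain.

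Several gene models limit what their values stand for. The model of Peroxidase 20 (evm_TU_ptg000019l_1070, ptg000019l, 6962555 to 6965972, minus strand) also carries dioxygenase domains, and that of Peroxidase 9 (evm_TU_ptg000001l_2468) carries GTPase domains, so their reads cannot be assigned to the peroxidase part. Peroxidase 64, Probable peroxidase 61 and the thylakoid lumenal protein overlap a gene on the opposite strand, and the strand setting of the counting is not given in the sources used here.

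The levels of the members were summed per library for each class. The summed level of class III peroxidases was 626 ± 83.8 FPKM in tattered and 175 ± 34.5 FPKM in intact Golden Hills hulls at 133 d (SD, n = 3 each), and the libraries did not overlap (576 to 722 against 138 to 206). The Lost Hills sum was 411 ± 96.8 FPKM in cracked and 239 ± 43.0 FPKM in intact hulls (SD, n = 3 each), again without overlap (325 to 516 against 204 to 287). Intact hulls at 91 d held 434 ± 26.1 FPKM in Golden Hills and 382 ± 107 FPKM in Lost Hills (SD, n = 4 each). These sums describe the libraries and were not tested.

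For ascorbate peroxidases the summed level was 504 ± 86.8 FPKM in tattered and 462 ± 50.3 FPKM in intact Golden Hills hulls at 133 d (SD, n = 3 each), with ranges that overlapped. It was 428.3 ± 56.1 FPKM in cracked and 387 ± 27.7 FPKM in intact Lost Hills hulls (SD, n = 3 each), also with overlap. At 91 d it was 717 ± 102 FPKM in Golden Hills and 537 ± 60.6 FPKM in Lost Hills (SD, n = 4 each). Of the 29 tested class III peroxidases, 11 had their highest group mean in tattered hulls and 6 in 91 d Golden Hills hulls, while each of the other groups was highest for 3. All 5 ascorbate peroxidases were highest at 91 d, 3 in Golden Hills and 2 in Lost Hills. The share of all genes tested that is highest in each group is not given here. Some class III members also passed the filter through their highest group alone. These counts therefore describe the members and cannot be read as a trait of either class.

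**Figure D1:**
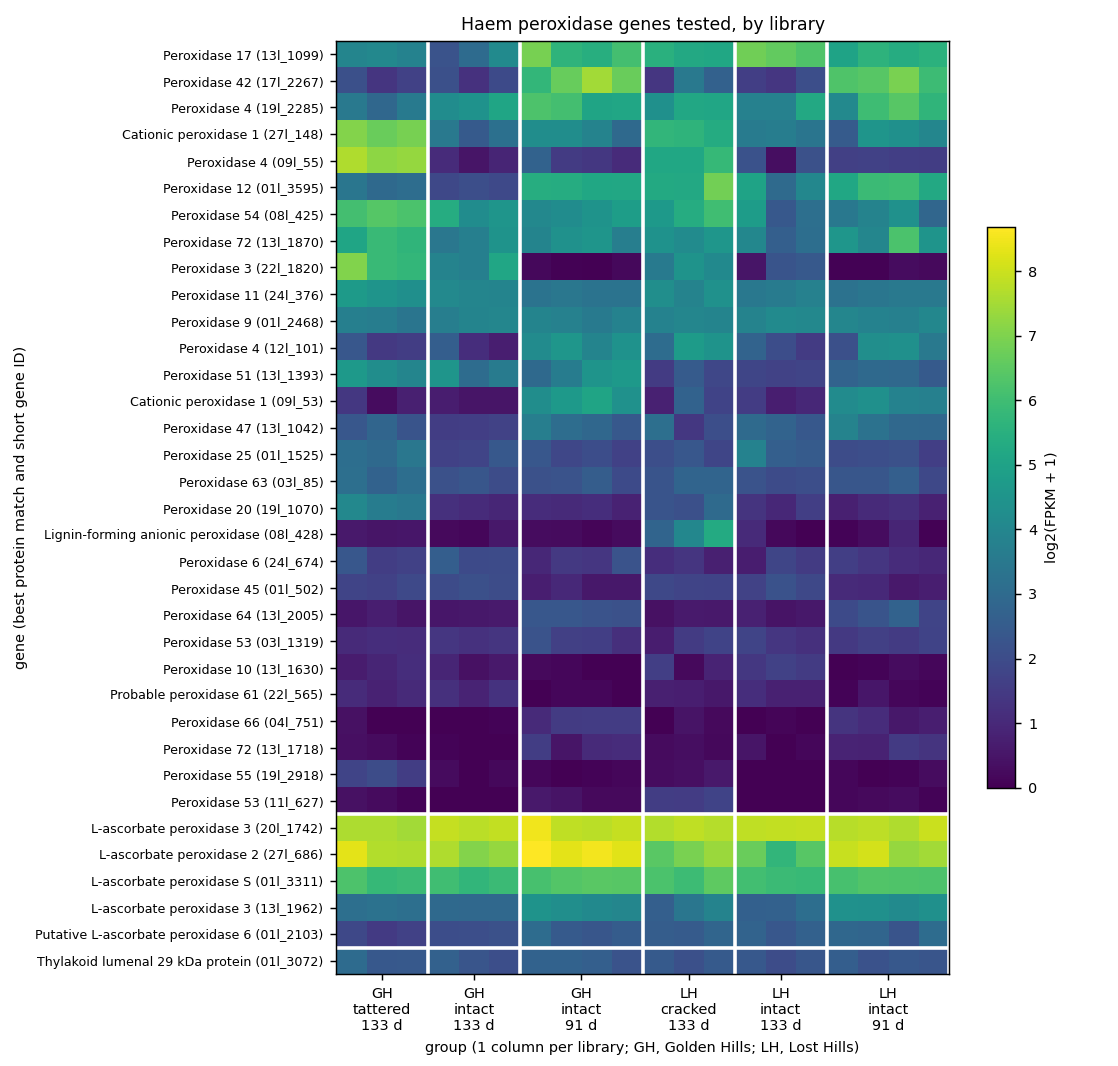
Expression of the 35 tested haem peroxidase genes, as log2(FPKM + 1) by color, with 1 column per library and the 6 groups parted by white lines. Rows run from the highest to the lowest mean within class III peroxidases, ascorbate peroxidases and the thylakoid lumenal protein. Peroxidase 4 (evm_TU_ptg000009l_55) is bright in the tattered and cracked columns, and Peroxidase 42 in the 91 d columns.

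**Figure D2:**
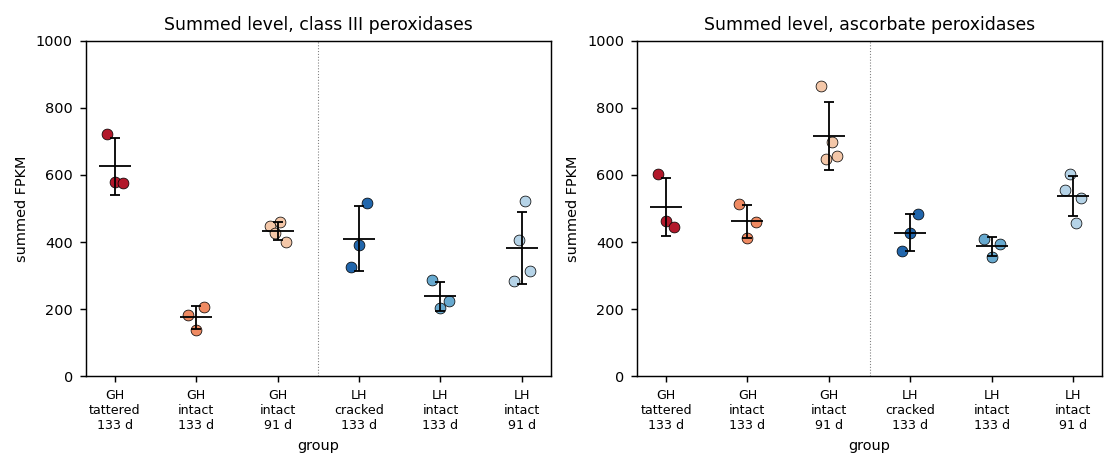
Summed FPKM of class III peroxidases (left) and ascorbate peroxidases (right), with 1 point per library and bars for the mean and SD of each group. The class III sum is 576 to 722 FPKM in tattered and 138 to 206 FPKM in intact Golden Hills hulls at 133 d, and the ascorbate peroxidase sum is highest in 91 d Golden Hills hulls.

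Tattered hulls were compared with intact hulls of Golden Hills at 133 d to find the genes that go with this form of splitting. In tattered hulls 10 of the 35 tested members rose and 0 fell (limma, Benjamini-Hochberg adjusted p under 0.05 over all 19716 genes tested). All 10 were class III peroxidases, and 9 were among the 30. Among all genes tested, 16.6% were called, 9.29% higher and 7.35% lower. The median log2 fold change of the tested members was 0.27, against 0.01 over all genes. At an unadjusted p under 0.05, 3 members were lower, and voom on recovered reads called 11 higher and 0 lower. Calls of lower members came with other settings. With values rescaled to TPM the split was 8 higher and 2 lower, a scaling that moved the median of all genes to -0.12. The 2 lower under that scaling were L-ascorbate peroxidase 3 of ptg000020l (log2 fold change -0.47, against -0.29 as deposited) and Peroxidase 9 (-0.42, against -0.26 as deposited). Array weights called 3 lower, Peroxidase 4 of ptg000019l, Peroxidase 9 and Putative L-ascorbate peroxidase 6. Quantile normalization, the fit of only the groups compared, its replicate block, and the fits without replicate 1 of either 91 d group called 1 lower each, L-ascorbate peroxidase 3 of ptg000020l or Peroxidase 4 of ptg000019l.

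Peroxidase 4 (evm_TU_ptg000009l_55, ptg000009l, 480373 to 481966, plus strand), named after a grape protein, had 199.9, 147 and 156 FPKM in tattered hulls, against 1.09, 0.410 and 0.847 FPKM in intact hulls. The tattered libraries stood far above the intact ones, where the gene was close to the expression filter. The change was 6.57 (SE 0.42, adjusted p = 7.1e-09) on the log2(FPKM + 1) scale, the largest of the 35 members, and this scale understates changes of low genes.

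Cationic peroxidase 1 of ptg000027l is matched to a peanut enzyme whose crystal structure is known. It had 132, 103 and 119 FPKM in tattered and 10.3, 4.49 and 8.14 FPKM in intact hulls. All tattered libraries were above all intact ones, and the log2 fold change was 3.84 (SE 0.42, adjusted p = 6.83e-06). Peroxidase 20 had 15.5, 11.4 and 10.1 FPKM in tattered and 1.3, 1.10 and 0.891 FPKM in intact hulls, again apart, with a log2 fold change of 2.65 (SE 0.22, adjusted p = 1.77e-07).

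Peroxidase 3 (evm_TU_ptg000022l_1820, ptg000022l, 23749867 to 23751621, plus strand) is matched to an Arabidopsis gene found among cold-inducible ones. It had 131, 58.5 and 52.1 FPKM in tattered and 13.7, 12.3 and 34.4 FPKM in intact hulls. Replicate 1 of the tattered group was far above the other two tattered libraries, and the lowest tattered library was above the highest intact one. The log2 fold change was 1.97 (SE 0.45, adjusted p = 0.00654), and the summed class III level of tattered hulls stood mostly on this gene, Peroxidase 4 of ptg000009l and Cationic peroxidase 1 of ptg000027l, which together held 58.6% of it. The call of Peroxidase 3 was lost when the fit held only the groups compared, with and without a replicate block.

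The remaining 6 calls had smaller changes, from 0.52 for Peroxidase 11 to 1.67 for Peroxidase 72 (evm_TU_ptg000013l_1870). Peroxidase 72, which acts in lignification of stems in Arabidopsis, averaged 47.1 ± 12.6 FPKM in tattered and 14.4 ± 5.89 FPKM in intact hulls (SD, n = 3 each), a call lost without replicate 1 of the intact group or without replicate 2 or 3 of the tattered group. Peroxidase 25, also tied to stem lignin in Arabidopsis, averaged 8.13 ± 1.53 FPKM in tattered and 2.98 ± 1.13 FPKM in intact hulls. Peroxidase 11 averaged 22.01 ± 3.29 FPKM in tattered and 14.95 ± 0.925 FPKM in intact hulls, a call lost without replicate 1 of the tattered group. Peroxidase 54, Peroxidase 63 and Peroxidase 55 were the other 3 calls and were named after their values were seen. Peroxidase 54 averaged 74.7 ± 8.25 FPKM in tattered and 26.6 ± 11.9 FPKM in intact hulls (adjusted p = 0.0397), and lost its call under 10 of 30 other settings. Libraries of tattered and intact hulls did not overlap for any of the 10 genes. These genes were chosen by adjusted p and the share without overlap over all genes is not given here, so this adds no evidence.

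Markers of other tissues were read beside these calls. The summed level of 30 cuticle genes was 283 to 334 FPKM in tattered and 179 to 219 FPKM in intact hulls, without overlap, and 4 of its 17 tested genes were higher. Among these was Cytochrome P450 86A1 (evm_TU_ptg000016l_840), a fatty acid hydroxylase of suberin synthesis in Arabidopsis, at 8.06 FPKM in tattered and 0.0261 FPKM in intact hulls. For 27 secondary wall genes, typical of xylem, fibres and shell, the sum was 17.6 to 24.2 FPKM in tattered and 12.8 to 15 FPKM in intact hulls, without overlap. Of the 27, 16 had no read in tattered hulls and 16 none in intact hulls. The 1 gene called higher among the 9 tested was Fasciclin-like arabinogalactan protein 12, at 1.88 FPKM in tattered and 0.159 FPKM in intact hulls. Cellulose synthase A subunit 4 (evm_TU_ptg000019l_1550), a defining gene of this wall, averaged 0.875 FPKM in tattered and 1.16 FPKM in intact hulls.

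Kernel genes summed to 107 to 142 FPKM in tattered and 116 to 158 FPKM in intact hulls, with overlap, and 1 of 14 tested was called higher, an oleosin gene (evm_TU_ptg000001l_1636), at 9.59 FPKM in tattered and 0.739 FPKM in intact hulls. The most abundant kernel gene, 12S seed storage globulin 2, averaged 87.2 FPKM in tattered and 111 FPKM in intact hulls. Green tissue genes summed to 198 to 297 FPKM in tattered and 201 to 229 FPKM in intact hulls, also with overlap, with 3 of 16 tested genes higher and 1 lower. The part of these tissues in the peroxidase result was not tested.

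**Figure D3:**
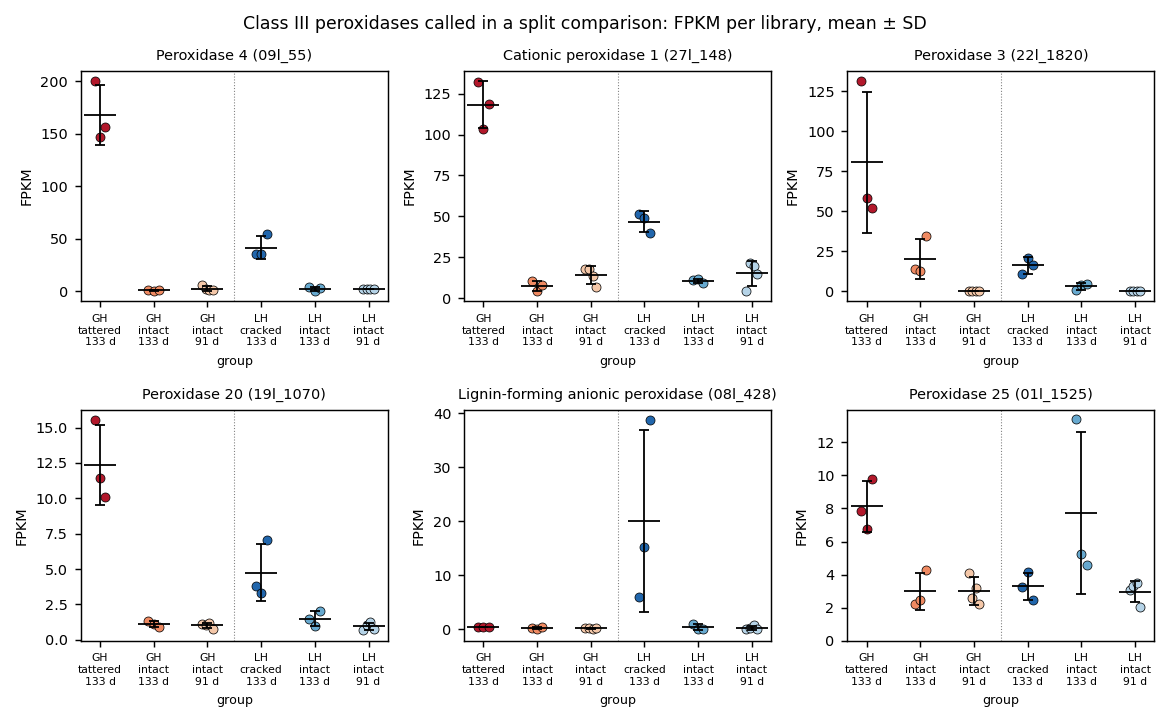
FPKM per library for 6 class III peroxidases called in a split comparison or in the difference between the splits, with 1 point per library and bars for the mean and SD of each group, Golden Hills left and Lost Hills right of the dotted line. Peroxidase 4 (evm_TU_ptg000009l_55) reaches 147 to 199.9 FPKM in tattered and 35.02 to 54.6 FPKM in cracked hulls, and the lignin-forming anionic peroxidase (evm_TU_ptg000008l_428) 6.02 to 38.7 FPKM in cracked hulls and at most 0.493 FPKM in tattered hulls.

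Cracked hulls were compared with intact hulls of Lost Hills at 133 d in the same way. Here 8 of the 35 tested members rose and 0 fell, and the 8 were all class III peroxidases, 6 of them among the 30. Over all genes tested, 1.56% were called, 1.48% higher and 0.0812% lower. The median log2 fold change was 0.41 for the tested members and -0.01 for all genes. By limma at an unadjusted p under 0.05, 3 members were lower, and voom called 6 higher and 0 lower. Calls of lower members by limma came with libraries left out. Peroxidase 17 was called lower without replicate 3 of intact Golden Hills at 133 d (log2 fold change -1.25, adjusted p = 0.0379). Peroxidase 10 was called lower without replicate 1 of cracked hulls (log2 fold change -0.99, adjusted p = 0.0108). When the fit held only the 6 libraries compared, 2 members were called, Cationic peroxidase 1 of ptg000027l and Peroxidase 53 of ptg000011l. Without replicate 2 of intact Lost Hills at 133 d, 4 were called.

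Peroxidase 4 of ptg000009l, the gene with the largest change in tattered hulls, had 35.02, 35.1 and 54.6 FPKM in cracked and 3.59, 0.244 and 3.49 FPKM in intact hulls. The cracked libraries were all above the intact ones, and its log2 fold change was 3.82 (SE 0.42, adjusted p = 4.69e-05). Cationic peroxidase 1 of ptg000027l had 51.6, 49.1 and 39.7 FPKM in cracked and 11.2, 11.9 and 9.48 FPKM in intact hulls, without overlap, and a log2 fold change of 2.01 (SE 0.42, adjusted p = 0.0144). That call was lost without replicate 2 or without replicate 3 of the intact group.

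Lignin-forming anionic peroxidase (evm_TU_ptg000008l_428, ptg000008l, 9490114 to 9492106, plus strand) is matched to the tobacco enzyme that polymerises lignin precursors. It had 6.02, 15.3 and 38.7 FPKM in cracked and 1.06, 0.147 and 0 FPKM in intact hulls. The cracked libraries differed several-fold among themselves, yet the lowest was above every intact library. The log2 fold change was 3.64 (SE 0.42, adjusted p = 6.73e-05), for a gene that passed the filter through its cracked libraries. In the other groups the gene stayed under 1 FPKM, and tattered Golden Hills hulls had 0.493, 0.422 and 0.451 FPKM, against 0.165, 0.103 and 0.479 FPKM in intact ones.

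Peroxidase 3 had 10.7, 21.0 and 16.5 FPKM in cracked and 0.395, 3.82 and 4.40 FPKM in intact Lost Hills hulls, without overlap, and a log2 fold change of 2.32 (SE 0.45, adjusted p = 0.00796). Peroxidase 20 averaged 4.73 ± 2.02 FPKM in cracked and 1.496 ± 0.545 FPKM in intact hulls (log2 fold change 1.17, adjusted p = 0.00638). Peroxidase 53 of ptg000011l, matched to a secreted Arabidopsis enzyme and named after its values were seen, averaged 2.10 ± 0.238 FPKM in cracked hulls and had 0 reads in each intact library. Against a floor of 3 reads per library its level was at least 12.7-fold higher in cracked hulls. It reached 1 FPKM in the cracked libraries alone and was tested through them, so its call is no independent evidence of the difference.

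Peroxidase 12 and Peroxidase 11 were close to the threshold. Peroxidase 12 had 37.4, 36.3 and 113 FPKM in cracked and 31.7, 6.94 and 15.1 FPKM in intact hulls, where replicate 1 of the intact group came close to the lowest cracked library (adjusted p = 0.0382). It lost its call under 17 of 30 other settings. Peroxidase 11 averaged 17.4 ± 3.12 FPKM in cracked and 11.5 ± 1.53 FPKM in intact hulls (adjusted p = 0.0472) and lost its call under 24 of 30. Cuticle genes summed to 179 to 204 FPKM in cracked and 138 to 193 FPKM in intact Lost Hills hulls, and secondary wall genes to 9.32 to 12.03 FPKM in cracked and 5.99 to 14.8 FPKM in intact hulls. Kernel genes summed to 140.1 to 251 FPKM in cracked and 156 to 208 FPKM in intact hulls, and green tissue genes to 229 to 268 FPKM in cracked and 213 to 282 FPKM in intact hulls. The ranges overlapped in each of the 4 lists. Called higher in cracked hulls were 1 of 17 cuticle genes, 1 of 16 green tissue genes and 1 of 14 kernel genes. The cuticle gene was again Cytochrome P450 86A1, at 11.6 FPKM in cracked and 0.0841 FPKM in intact hulls. The green tissue gene was Chlorophyll a-b binding protein 21 (evm_TU_ptg000017l_2157), at 16.2 FPKM in cracked and 6.65 FPKM in intact hulls, and the kernel gene was Legumin B (evm_TU_ptg000013l_106), at 7.46 FPKM in cracked and 4.62 FPKM in intact hulls. The part of these tissues in the peroxidase result was not tested.

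**Figure D4:**
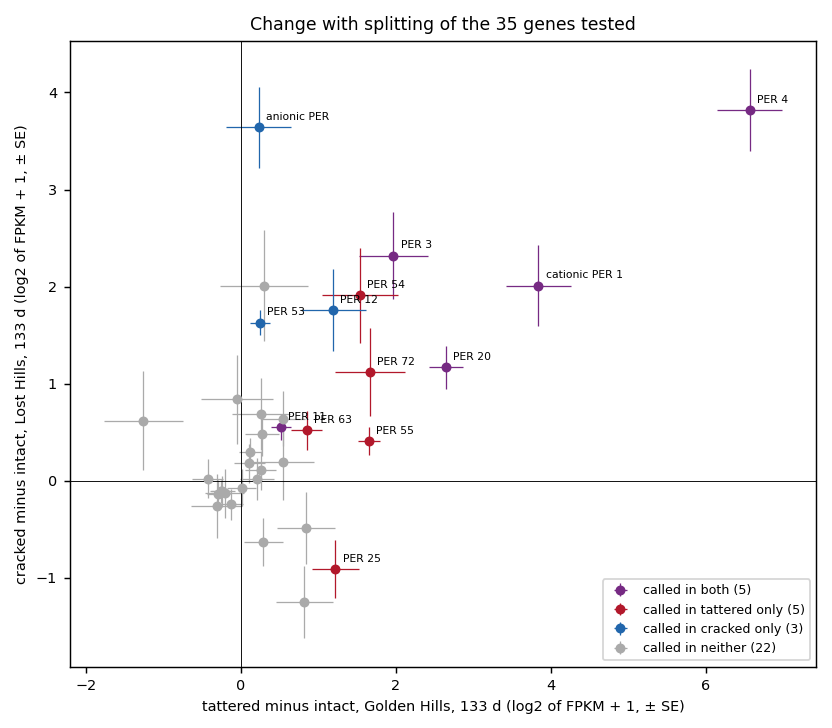
Change with splitting of the 35 tested genes: tattered minus intact in Golden Hills on the x axis and cracked minus intact in Lost Hills on the y axis, both as log2 of FPKM + 1 with SE bars. The 5 genes called in both lie in the upper right, with Peroxidase 4 (PER 4) farthest out at 6.57 and 3.82, and Peroxidase 25 (PER 25) lies below the horizontal line.

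Tattered and cracked hulls shared 5 of their calls, which are 5 of 10 in tattered and 5 of 8 in cracked hulls. Over all genes tested, 199 were higher in both, which is 10.9% of those higher in tattered and 68.4% of those higher in cracked hulls. The shared genes were Peroxidase 4 of ptg000009l, Cationic peroxidase 1 of ptg000027l, Peroxidase 3, Peroxidase 11 and Peroxidase 20. The means of the tattered and cracked comparisons come from different libraries. All 20 libraries share 1 estimate of spread in the model, so the calls of these comparisons are not independent. Whether a gene's change differed between the splits was tested directly, as the change in Golden Hills minus the change in Lost Hills. For 6 of 35 members the difference was called, 4 positive and 2 negative, against 0.994% of all genes tested (0.771% positive and 0.223% negative). Of the 6, 3 had passed the filter through 1 group alone, Lignin-forming anionic peroxidase, Peroxidase 53 of ptg000011l and Peroxidase 55, and both negative calls were among these. Over the other 30 members 3 were called, all positive. voom on recovered reads called 0 members here, with 12 at an unadjusted p under 0.05 in limma, and the fit of only the groups compared called 3.

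Peroxidase 4 of ptg000009l gained more in tattered than in cracked hulls, by 2.75 (SE 0.59, adjusted p = 0.0289), a call lost under 14 of 30 other settings. Peroxidase 25 was 8.13 ± 1.53 FPKM in tattered and 2.98 ± 1.13 FPKM in intact Golden Hills hulls. In Lost Hills it was 3.28 ± 0.826 FPKM in cracked and 7.74 ± 4.90 FPKM in intact hulls, so the means differed in opposite directions, and the difference of the changes was 2.13 (SE 0.42, adjusted p = 0.0148). Its Lost Hills change alone was -0.91 (adjusted p = 0.202). Peroxidase 20 differed by 1.48 (SE 0.31, adjusted p = 0.0234).

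Lignin-forming anionic peroxidase had the largest negative difference, -3.40 (SE 0.59, adjusted p = 0.00575). Peroxidase 53 of ptg000011l and Peroxidase 55 were low genes with calls of -1.39 and 1.24. Peroxidase 55 had 2.42, 3.09 and 1.95 FPKM in tattered hulls, against 0.197, 0 and 0.127 FPKM in intact Golden Hills hulls, and 0.223, 0.281 and 0.498 FPKM in cracked hulls, with no read in intact Lost Hills hulls. The levels were thus highest in tattered hulls for Peroxidase 55 and in cracked hulls for Peroxidase 53.

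The 2 ages of intact hulls were compared within each cultivar. In Golden Hills 18 of the 35 tested members were called at 133 d against 91 d, 4 higher and 14 lower. All genes tested gave 45.3% called, 23.2% higher and 22.1% lower, and the median log2 fold change was -0.36 for the tested members and -0.03 for all genes. In Lost Hills 17 were called, 6 higher and 11 lower, where all genes gave 31.7% called, 16.0% higher and 15.7% lower, with a median log2 fold change of -0.18 for the tested members and 0.00 for all genes. Over the 30 members that did not pass the filter through 1 group alone, 4 were higher and 12 lower in Golden Hills. In Lost Hills 5 of these 30 were higher and 10 lower. Without replicate 2 of both 91 d groups, 16 members were called in Golden Hills and 15 in Lost Hills. The Lost Hills count fell to 11 without replicate 2 of intact Lost Hills at 133 d. Lower in both cultivars were 9 members and higher in both were 3, and 1 moved in opposite directions. Over all genes tested, 11.5% were lower in both, 12.2% higher in both and 0.355% opposite.

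Peroxidase 42 (evm_TU_ptg000017l_2267, ptg000017l, 39364000 to 39365875, minus strand) was the most abundant class III peroxidase of 91 d hulls. It had 3.31, 1.33 and 2.87 FPKM at 133 d and 52.8, 101, 175 and 103 FPKM at 91 d in Golden Hills. Lost Hills hulls had 2.07, 1.58 and 3.27 FPKM at 133 d and 76.5, 84.8, 122 and 60.9 FPKM at 91 d. The ages were far apart in both cultivars, with log2 fold changes of -4.88 (SE 0.43, adjusted p = 1.18e-07) in Golden Hills and -4.71 (SE 0.43, adjusted p = 7.13e-07) in Lost Hills. The gene remained low in tattered hulls (2.36 FPKM) and in cracked hulls (5.84 FPKM).

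Cationic peroxidase 1 of ptg000009l (evm_TU_ptg000009l_53, ptg000009l, 462661 to 463990, minus strand) had 0.604, 0.397 and 0.410 FPKM at 133 d and 18.1, 24.8, 32.6 and 20.2 FPKM at 91 d in Golden Hills, with no overlap. The change was -4.05 (SE 0.35, adjusted p = 1.07e-07) there and -2.97 (SE 0.35, adjusted p = 9.21e-06) in Lost Hills. It lies beside Peroxidase 4 (evm_TU_ptg000009l_55), which had the largest rise among the members in both kinds of split hulls on the log2(FPKM + 1) scale, and the pair spans positions 462661 to 481966. As a ratio of mean FPKM in cracked hulls, Lignin-forming anionic peroxidase was further up, at 49.6, against 17.03 for Peroxidase 4. Cationic peroxidase 1 of ptg000009l itself was at 0.847 ± 0.712 FPKM in tattered and 0.470 ± 0.116 FPKM in intact hulls, and this was not called. Its neighbour Peroxidase 4 was not called with age (log2 fold change -0.86, adjusted p = 0.0825 in Golden Hills, and -0.07, adjusted p = 0.919 in Lost Hills).

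Peroxidase 12 fell in both cultivars with age. It had 2.72, 3.27 and 2.78 FPKM at 133 d and 41.2, 40.2, 35.3 and 36.2 FPKM at 91 d in Golden Hills, a change of -3.32 (SE 0.39, adjusted p = 3.24e-06). In Lost Hills it averaged 17.9 ± 12.6 FPKM at 133 d and 48.4 ± 14.8 FPKM at 91 d (log2 fold change -1.57, adjusted p = 0.00557), a call lost without replicate 2 of intact Lost Hills at 133 d. The other genes lower in both cultivars, beside 2 ascorbate peroxidases, were Peroxidase 4 of ptg000012l, Peroxidase 64, Peroxidase 66 and Peroxidase 72 (evm_TU_ptg000013l_1718), named after their values were seen. Of these, Peroxidase 66 would not have passed the filter without its 91 d Golden Hills libraries. Peroxidase 64 builds lignin in the Casparian strip of Arabidopsis roots and Peroxidase 66 is tied to vessel lignin there. Peroxidase 64 averaged 0.483 ± 0.0589 FPKM at 133 d and 3.85 ± 0.361 FPKM at 91 d in Golden Hills, and 0.533 ± 0.189 FPKM at 133 d and 3.67 ± 1.44 FPKM at 91 d in Lost Hills.

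Peroxidase 72 (evm_TU_ptg000013l_1870) was lower at 133 d in Lost Hills, with 15.04, 5.24 and 7.80 FPKM at 133 d and 22.3, 14.97, 72.7 and 21.7 FPKM at 91 d. One 91 d library stood far above the other three, the groups overlapped slightly, and the change was -1.55 (SE 0.42, adjusted p = 0.00884). This call too was lost without replicate 2 of intact Lost Hills at 133 d. Peroxidase 25 rose with age in Lost Hills, with 13.4, 5.24 and 4.59 FPKM at 133 d and 3.05, 3.29, 3.48 and 2.04 FPKM at 91 d (log2 fold change 1.02, SE 0.28, adjusted p = 0.00950), a call lost without replicate 1 of the 133 d group. Peroxidase 3, Peroxidase 45 and Probable peroxidase 61 were higher at 133 d in both cultivars, and Peroxidase 45 and Probable peroxidase 61 are named after their values were seen. Peroxidase 3 had 13.7, 12.3 and 34.4 FPKM at 133 d and 0.126, 0.0440, 0 and 0.137 FPKM at 91 d in Golden Hills, so it was near absent from young hulls, and its change was 4.15 (SE 0.42, adjusted p = 6.01e-07). In Lost Hills it had 0.395, 3.82 and 4.40 FPKM at 133 d and 0.0470, 0.0413, 0.226 and 0.176 FPKM at 91 d (log2 fold change 1.56, SE 0.42, adjusted p = 0.00851), a call lost without replicate 2 or without replicate 3 of the 133 d group. Peroxidase 11 rose with age in Golden Hills, by a small amount (log2 fold change 0.65, SE 0.12, adjusted p = 0.000425).

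Secondary wall genes moved with age as well. They summed to 12.8 to 15 FPKM at 133 d and 19.2 to 41.5 FPKM at 91 d in Golden Hills, and to 5.99 to 14.8 FPKM at 133 d and 20.01 to 37.9 FPKM at 91 d in Lost Hills. In each cultivar 7 of the 9 tested genes were lower at 133 d and 1 was higher. Green tissue genes summed to 201 to 229 FPKM at 133 d and 324 to 501 FPKM at 91 d in Golden Hills, and to 213 to 282 FPKM at 133 d and 308 to 411 FPKM at 91 d in Lost Hills. Of 16 tested green tissue genes, 3 were higher and 9 lower at 133 d in Golden Hills (median log2 fold change -0.60), and 1 was higher and 3 lower in Lost Hills (median 0.26). Kernel genes summed to 116 to 158 FPKM at 133 d and 189 to 276 FPKM at 91 d in Golden Hills, without overlap, and to 156 to 208 FPKM at 133 d and 169 to 236 FPKM at 91 d in Lost Hills, with overlap. Of 14 tested kernel genes, 1 was higher and 1 lower at 133 d in Golden Hills (median log2 fold change -0.25). In Lost Hills 3 were higher and 2 lower (median 0.37). Oleosin (evm_TU_ptg000002l_681) was called lower in both. It had 0.213 FPKM at 133 d and 51.6 FPKM at 91 d in Golden Hills, and 2.53 FPKM and 46.9 FPKM in Lost Hills. Another kernel gene (evm_TU_ptg000009l_3047) was called higher in both, with log2 fold changes of 1.64 in Golden Hills and 1.09 in Lost Hills. The part of these tissues in the fall of the peroxidases was not tested.

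**Figure D5:**
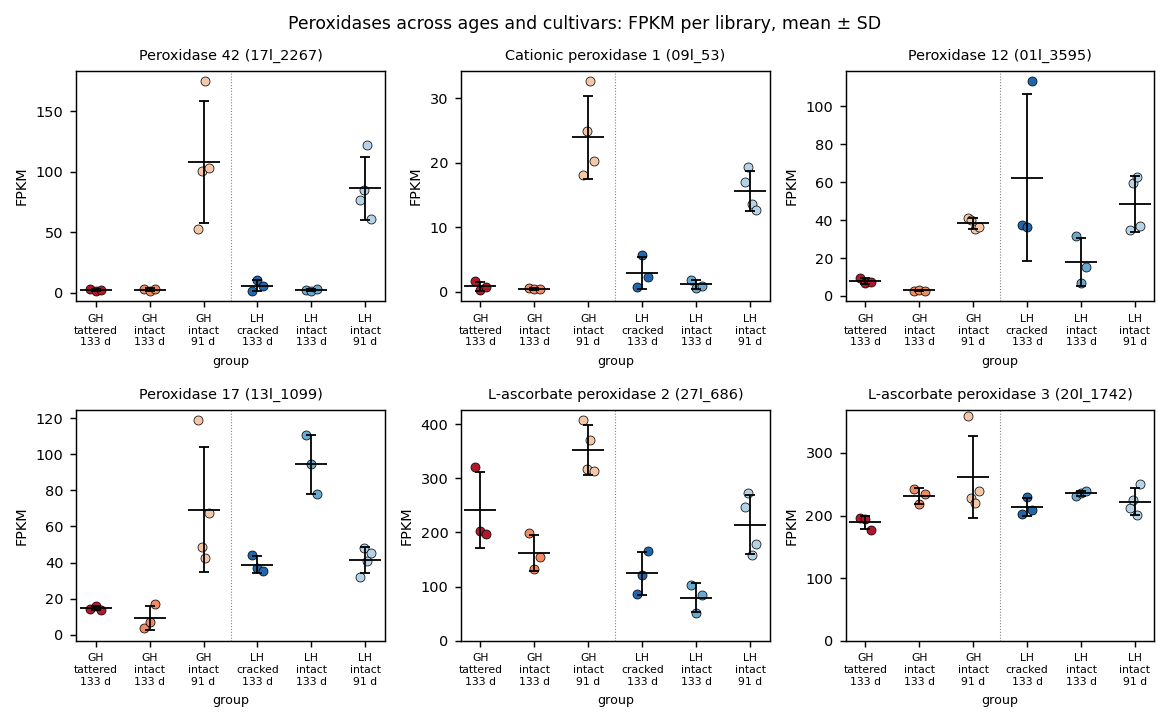
FPKM per library for 4 class III and 2 ascorbate peroxidases in the 6 groups, with 1 point per library and bars for the mean and SD. Peroxidase 42 stands at 52.8 to 175 FPKM at 91 d in Golden Hills and at no more than 3.31 FPKM in intact hulls at 133 d, and Peroxidase 17 is low at 133 d in Golden Hills and high in Lost Hills.

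Peroxidase 17 (evm_TU_ptg000013l_1099, ptg000013l, 16008325 to 16010092, plus strand) changed in opposite directions with age. Its Arabidopsis namesake takes part in forming lignified tissue. In Golden Hills it had 3.65, 7.21 and 16.9 FPKM at 133 d and 119, 48.7, 42.3 and 67.3 FPKM at 91 d, so every 133 d library was below every 91 d library (log2 fold change -2.88, SE 0.35, adjusted p = 4.41e-06). Lost Hills hulls had 111, 94.6 and 77.8 FPKM at 133 d and 32.0, 48.2, 40.6 and 45.4 FPKM at 91 d, and every 133 d library was above every 91 d library (log2 fold change 1.17, SE 0.35, adjusted p = 0.0169). The Lost Hills call was lost without replicate 1 of the 91 d group, or without replicate 1 or replicate 2 of the 133 d group. The difference between the cultivars' age changes was -4.04 (SE 0.50, adjusted p = 0.000200) and kept its call in each of 30 other settings. It was 1 of 2 members called for that difference, 1 positive and 1 negative, where all genes gave 3.29%, with 2.05% positive and 1.24% negative. The other was Peroxidase 3, with a difference of 2.58 (SE 0.59, adjusted p = 0.0225), and it was not called without replicate 2 of both 91 d groups, with voom, or without replicate 3 of intact Golden Hills at 133 d.

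Between the cultivars, intact hulls were compared at each age. At 133 d, 7 of the 35 members differed, 3 higher and 4 lower in Golden Hills. All genes gave 16.8% called, 8.88% higher and 7.91% lower. Over the 30 members that did not pass the filter through 1 group alone, 3 were higher and 3 lower. At 91 d limma called 0 members, with 3 at an unadjusted p under 0.05 and 0 by voom, while 5.1% of all genes were called, 2.55% higher and 2.56% lower. With array weights 3 members were called at 91 d. The median log2 fold change of the tested members was -0.03 at 133 d and 0.05 at 91 d, and 0.00 over all genes at both ages.

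At 133 d Peroxidase 17 averaged 9.26 ± 6.87 FPKM in Golden Hills and 94.4 ± 16.5 FPKM in Lost Hills (SD, n = 3 each), a log2 fold change of -3.42 (SE 0.37, adjusted p = 1.02e-05). In split hulls of the same age it averaged 14.6 ± 1.11 FPKM in tattered and 38.8 ± 4.83 FPKM in cracked hulls. Neither split comparison over all libraries called it. The cracked libraries lay below the intact Lost Hills ones without overlap (35.3 to 44.3 against 77.8 to 111 FPKM). Without replicate 3 of intact Golden Hills at 133 d the gene was called lower in cracked hulls. Peroxidase 12 was also lower in Golden Hills, at 2.72, 3.27 and 2.78 FPKM, against 31.7, 6.94 and 15.1 FPKM in Lost Hills (log2 fold change -2.04, SE 0.42, adjusted p = 0.00278). The other 2 lower genes were Peroxidase 25 (log2 fold change -1.03, adjusted p = 0.0234), which lost its call under 6 of 30 other settings, and the low gene Peroxidase 10, which passed the filter through intact Lost Hills hulls at 133 d (-0.91, adjusted p = 0.0167), named after its values were seen.

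Higher in Golden Hills at 133 d were Peroxidase 3, Peroxidase 51 and L-ascorbate peroxidase 2. Peroxidase 51 (evm_TU_ptg000013l_1393, ptg000013l, 20252085 to 20253824, minus strand) had 22.02, 7.44 and 11.3 FPKM in Golden Hills and 2.48, 2.29 and 2.42 FPKM in Lost Hills, with no overlap (log2 fold change 1.98, SE 0.39, adjusted p = 0.00205). It was the gene nearest a call at 91 d, where it averaged 16.1 ± 8.37 FPKM in Golden Hills and 5.96 ± 1.08 FPKM in Lost Hills (adjusted p = 0.0570). Peroxidase 3 averaged 20.1 ± 12.4 FPKM in Golden Hills and 2.87 ± 2.16 FPKM in Lost Hills at 133 d (log2 fold change 2.52, SE 0.45, adjusted p = 0.000833).

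Some ascorbate peroxidases were called with age and none in a split comparison, and the difference between these 2 kinds of change was not tested. Neither split comparison called any of the 5, with 1 lower in tattered and 3 higher in cracked hulls at an unadjusted p under 0.05, and voom called 0 in both. Other settings called some lower in tattered hulls. L-ascorbate peroxidase 3 of ptg000020l was called with TPM scaling (adjusted p = 0.0144), quantile normalization (adjusted p = 0.00611) and without replicate 1 of Golden Hills at 91 d (adjusted p = 0.0423), and Putative L-ascorbate peroxidase 6 with array weights (adjusted p = 0.0259). With age 4 of 5 were called in Golden Hills and 2 of 5 in Lost Hills, all lower at 133 d. Of all genes tested, 45.3% were called in Golden Hills, 22.1% lower, and 31.7% in Lost Hills, 15.7% lower. With voom 3 of the 5 were lower in Golden Hills and 2 in Lost Hills.

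L-ascorbate peroxidase 2 (evm_TU_ptg000027l_686, ptg000027l, 5348636 to 5351377, plus strand), matched to a cytosolic Arabidopsis enzyme induced by heat and strong light, had 198, 133 and 156 FPKM at 133 d and 408, 316, 370.4 and 314 FPKM at 91 d in Golden Hills. Lost Hills hulls had 103, 51.4 and 85.1 FPKM at 133 d and 247, 274, 159 and 178 FPKM at 91 d. All 133 d libraries were below the 91 d libraries of the same cultivar, with log2 fold changes of -1.12 (SE 0.26, adjusted p = 0.00208) in Golden Hills and -1.44 (SE 0.26, adjusted p = 0.000527) in Lost Hills. It was the ascorbate peroxidase that differed between cultivars at 133 d, at 162 ± 33.1 FPKM in Golden Hills and 79.8 ± 26.2 FPKM in Lost Hills (log2 fold change 1.05, SE 0.28, adjusted p = 0.0156). That call was lost without replicate 1 of intact Golden Hills or replicate 2 of intact Lost Hills at 133 d.

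Tattered hulls had 322, 203 and 197 FPKM of L-ascorbate peroxidase 2, with replicate 1 of the tattered group far above the other two, against 198, 133 and 156 FPKM in intact hulls (log2 fold change 0.55, adjusted p = 0.196). Cracked hulls had 86.2, 122 and 166 FPKM and intact Lost Hills hulls 103, 51.4 and 85.1 FPKM (0.64, adjusted p = 0.489).

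The 2 genes matched to L-ascorbate peroxidase 3, a peroxisomal membrane enzyme in Arabidopsis, gave different calls. The copy on ptg000020l (evm_TU_ptg000020l_1742, ptg000020l, 47814643 to 47819486, minus strand) had the highest mean of all members, and no comparison called it with the values as deposited and all libraries. Its level was 189 ± 10.9 FPKM in tattered and 231 ± 12.4 FPKM in intact Golden Hills hulls at 133 d, 214 ± 14.3 FPKM in cracked and 236 ± 4.05 FPKM in intact Lost Hills hulls. The tattered libraries lay below the intact ones without overlap (log2 fold change -0.29, adjusted p = 0.184). The copy on ptg000013l (evm_TU_ptg000013l_1962) was less abundant per length and fell with age, to 6.69 ± 0.0605 FPKM at 133 d, against 17.7 ± 2.77 FPKM at 91 d in Golden Hills (log2 fold change -1.27, SE 0.20, adjusted p = 7.01e-05). The Lost Hills means were 6.16 ± 1.41 FPKM at 133 d and 18.8 ± 1.38 FPKM at 91 d (log2 fold change -1.48, SE 0.20, adjusted p = 3.94e-05).

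L-ascorbate peroxidase S (evm_TU_ptg000001l_3311), the chloroplast stroma and mitochondrial form, averaged 58.0 ± 5.77 FPKM at 133 d and 80.5 ± 7.37 FPKM at 91 d in Golden Hills (log2 fold change -0.47, SE 0.13, adjusted p = 0.00683). Its Lost Hills change was -0.33 (adjusted p = 0.0603). Putative L-ascorbate peroxidase 6 (evm_TU_ptg000001l_2103) averaged 3.32 ± 0.155 FPKM at 133 d and 5.17 ± 1.48 FPKM at 91 d in Golden Hills (adjusted p = 0.0461), and this call was lost under 19 of 29 other settings. The thylakoid lumenal 29 kDa protein, a relative of these enzymes in the chloroplast, was between 3.76 and 5.26 FPKM in group means and was called in no comparison.

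Copies with the same best match were not always called in the same comparisons. The 96 members were matched to 49 proteins, and 22 of these were the match of 2 or more members. The 3 genes matched to grape Peroxidase 4 were all tested. The copy on ptg000009l rose in both kinds of split hulls, and the copy on ptg000012l fell with age, to 2.32 ± 2.43 FPKM at 133 d, against 18.6 ± 3.70 FPKM at 91 d in Golden Hills. The copy on ptg000019l (evm_TU_ptg000019l_2285, ptg000019l, 16800247 to 16802148, plus strand), the most abundant of the 3, was called in no comparison of the model over all libraries. It had 10.3, 6.37 and 10.7 FPKM in tattered and 17.5, 20.6 and 33.0 FPKM in intact hulls, without overlap and lower in the tattered ones (log2 fold change -1.26, adjusted p = 0.101). It was called lower in tattered hulls under 4 other settings, with adjusted p from 0.0231 with array weights to 0.0440 without replicate 1 of Lost Hills at 91 d. Of the 9 genes matched to Cationic peroxidase 1, 2 were tested, and of 7 matched to Lignin-forming anionic peroxidase, 1 was. Peroxidase 24, Peroxidase 27 and Peroxidase 60 were the match of 4 members each, and none of these was tested. In all, 29 of the 35 tested members were called in at least 1 comparison and 6 in none, where 64.9% of all genes tested were called in at least 1. All 5 members that passed the filter through their highest group alone were among the 29, and a difference was built into their choice. Beside L-ascorbate peroxidase 3 of ptg000020l, Peroxidase 4 of ptg000019l and the thylakoid lumenal protein, the 6 were Peroxidase 6, Peroxidase 9 and Peroxidase 53 of ptg000003l.

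Other genes of peroxide supply and use were counted in the split comparisons as lists, to be read against 9.29% of all genes higher and 7.35% lower in tattered hulls, and 1.48% higher and 0.0812% lower in cracked hulls. Of 7 tested respiratory burst oxidases, which make superoxide outside the cell, 1 rose and 1 fell in tattered hulls, with 4 higher and 1 lower at an unadjusted p under 0.05, and voom called 2 higher and 0 lower. The rise was Respiratory burst oxidase homolog protein C (evm_TU_ptg000009l_1164), named after its values were seen, at 3.20 ± 0.460 FPKM in tattered and 0.614 ± 0.262 FPKM in intact hulls (log2 fold change 1.39, adjusted p = 0.000725). Respiratory burst oxidase homolog protein A averaged 3.73 ± 0.148 FPKM in tattered and 8.33 ± 2.44 FPKM in intact hulls (log2 fold change -0.95, SE 0.31, adjusted p = 0.0432), and was not called by voom (adjusted p = 0.0531). Of 8 tested amine oxidases, another source of hydrogen peroxide, 2 fell and limma called 0 higher, with 1 higher at an unadjusted p under 0.05 and 0 by voom. Probable polyamine oxidase 4 averaged 62.3 ± 10.2 FPKM in tattered and 98.4 ± 14.7 FPKM in intact hulls (log2 fold change -0.65, SE 0.19, adjusted p = 0.0274). The other was Primary amine oxidase at 33.6 ± 2.05 FPKM in tattered and 51.5 ± 15.2 FPKM in intact hulls (log2 fold change -0.56, SE 0.18, adjusted p = 0.0366). Ascorbate recycling had 2 rises and 1 fall among 9 tested genes, and the rises and the fall were all in genes that recover ascorbate. Glutathione S-transferase DHAR2, a dehydroascorbate reductase, averaged 447 ± 28.6 FPKM in tattered and 289.6 ± 10.0 FPKM in intact hulls (log2 fold change 0.62, SE 0.14, adjusted p = 0.00752). Monodehydroascorbate reductase (evm_TU_ptg000011l_124) was at 326 ± 34.5 FPKM in tattered and 204 ± 51.1 FPKM in intact hulls (log2 fold change 0.70, SE 0.15, adjusted p = 0.00399). The fall was another gene matched to Monodehydroascorbate reductase (evm_TU_ptg000007l_1757), named after its values were seen. It averaged 0.511 ± 0.161 FPKM in tattered and 1.02 ± 0.0661 FPKM in intact hulls (log2 fold change -0.43, adjusted p = 0.0293). In cracked hulls limma called 0 genes of these 3 lists and voom 0, with 1 amine oxidase higher at an unadjusted p under 0.05 and 0 of the other two lists.

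Thiol peroxidases, which reduce lipid and hydrogen peroxides without haem, had 4 rises among 14 tested genes in tattered hulls. limma called 0 of them lower there and 0 in cracked hulls, with 0 also at an unadjusted p under 0.05 and by voom. The largest changes were in phospholipid hydroperoxide glutathione peroxidases with consecutive gene numbers. The gene evm_TU_ptg000010l_433 had 251 ± 102 FPKM in tattered and 11.3 ± 2.12 FPKM in intact hulls (log2 fold change 4.28, SE 0.47, adjusted p = 7.47e-06). For evm_TU_ptg000010l_434 it was 746 ± 247 FPKM in tattered and 98.6 ± 21.6 FPKM in intact hulls (log2 fold change 2.87, SE 0.44, adjusted p = 0.000280). Next in number, evm_TU_ptg000010l_432 has the same match and was named after its values were seen. It was more abundant, at 2045 ± 419 FPKM in tattered and 624 ± 53.8 FPKM in intact hulls (log2 fold change 1.69, adjusted p = 0.000493). Values of such copies are uncertain, as the counting of shared reads is not given. Casparian strip membrane proteins place peroxidases at the wall in Arabidopsis roots. The genes with that name were all under the filter, and those tested were their CASP-like relatives, for which this role is not established. Of 24 CASP-like genes tested, 6 rose and 1 fell in tattered hulls and 2 rose in cracked hulls. CASP-like protein 1C3 (evm_TU_ptg000019l_2099) averaged 28.6 ± 1.03 FPKM in tattered and 0.679 ± 0.812 FPKM in intact hulls (log2 fold change 4.24, SE 0.28, adjusted p = 8.19e-09). A second CASP-like protein 1C3 (evm_TU_ptg000017l_1728) averaged 14.7 ± 3.55 FPKM in tattered hulls and had no read in intact ones. The fall was CASP-like protein 4C1, at 16.5 ± 1.21 FPKM in tattered and 28.8 ± 2.31 FPKM in intact hulls (log2 fold change -0.77, SE 0.18, adjusted p = 0.00786). In cracked hulls CASP-like protein 1B1 averaged 8.67 ± 4.58 FPKM, against 0.0606 ± 0.105 FPKM in intact hulls (log2 fold change 3.09, SE 0.37, adjusted p = 8.55e-05). The medians of these lists in tattered hulls ran from -0.48 for amine oxidases to 0.57 for respiratory burst oxidases, against 0.01 over all genes.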

How the data were processed

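The authors deposited FPKM per gene and library in 1 table with gene lengths, protein matches and domains. HISAT2 2.0.5, StringTie 1.3.3b and featureCounts 1.5.0-p3 are named in the submitters' processing notes. The genome build is not given in the sources used here, so coordinates refer to the contigs of the deposited table. Polyadenylated RNA libraries used dUTP second strands, per the labels' protocols. FPKM times gene length was divided by a step for each library, fitted to the same values so that they became whole numbers. This gave whole reads for 100% of values within 0.01.

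limma 3.58.1 in R 4.3.3 was run on log2(FPKM + 1) as 1 model with 6 group means for the 20 libraries, no replicate block and an eBayes trend, over 19716 genes with at least 1 FPKM in 3 libraries. Tests were two-sided, in 8 comparisons (6 between groups, 2 of differences between changes), and p-values were adjusted within a comparison. The procedure was tested on simulated data. The floor of 3 reads covers counting error only.

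Members, lists and tests were chosen with earlier results of these data known. Named members are the 6 with the highest mean, up to 4 per direction in a comparison and 3 per sign in a difference (5 FPKM or more), and all tested ascorbate peroxidases. List genes are up to 2 per direction with the same floor. The alternatives were another pseudocount (0.1), filters, scalings (TPM, quantile), fits of only the groups compared, a replicate block, array weights, voom, membership by protein name, and libraries left out.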

Additional observations from a re-analysis of the deposited data

Results flagged for a closer look

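In groups of 4 libraries, 5 of 38 checks of a named member found 1 library apart from the other three, where chance gives about 1 in 20. L-ascorbate peroxidase 3 of ptg000020l was 359 FPKM in replicate 1 of Golden Hills at 91 d, against 219.8 to 239 FPKM in the others. In the same library Peroxidase 4 of ptg000009l was 5.69 FPKM, against 1.10 to 1.85 FPKM. Peroxidase 11 was 9.94 FPKM in replicate 2 of Golden Hills at 91 d, against 8.91 to 8.98 FPKM. In replicate 3 of Lost Hills at 91 d Peroxidase 72 of ptg000013l was 72.7 FPKM, against 14.97 to 22.3 FPKM, and L-ascorbate peroxidase 3 of ptg000013l was 16.7 FPKM, against 19.3 to 19.8 FPKM.

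The change with splitting differed between Golden Hills and Lost Hills by 2.75 for Peroxidase 4 of ptg000009l, 2.13 for Peroxidase 25, 1.48 for Peroxidase 20 and -3.40 for Lignin-forming anionic peroxidase, all on the log2 scale and called by limma. The change with age differed by -4.04 for Peroxidase 17 and by 2.58 for Peroxidase 3.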

How the results depend on the processing

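Of 953 recomputed values of named members (32 log2 fold changes in up to 30 settings), 888 kept their call, 65 lost it and 0 changed sign. Counts of members called, in the order used for the comparisons, moved as follows. The share of all genes called under each other setting is not given here. The moves in this section therefore cannot be read as particular to peroxidases. With a mean of at least 5 FPKM, 19 members were tested and 6 were called in tattered, 3 in cracked, 11 in Golden Hills by age, 11 in Lost Hills by age, and 1 for the difference between splits. Array weights gave 16 in tattered hulls (13 higher, 3 lower), 3 between cultivars at 91 d and 4 for the difference between ages. The comparison of cultivars at 91 d had 1 without a filter and 1 with quantile normalization. Only the groups compared gave 2 in cracked hulls and 3 for the difference between splits, which had 1 with a pseudocount of 0.1 and 0 with voom. The difference between ages had 1 with voom and 1 when replicate 2 was dropped from both groups of 91 d. The causes were not tested, apart from the fewer genes tested under the stricter filter.

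Replicate numbers were not treated as a pairing, because the labels do not say what they mark. Deviations of same-numbered libraries correlated by -0.174 to 0.223. Libraries with different numbers were not correlated, so these values cannot decide whether the numbers mark a pairing. With a replicate block and only the groups compared, 0 members were called in cracked hulls, 11 in Lost Hills by age, 4 between cultivars at 133 d and 1 for the difference between splits.

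Leaving out each library in turn gave 8 to 11 members in tattered and 4 to 11 in cracked hulls, 16 to 20 in Golden Hills and 11 to 18 in Lost Hills by age. It gave 5 to 9 between cultivars at 133 d, 0 to 1 at 91 d, 4 to 7 for the difference between splits and 1 to 3 for that between ages. The lowest counts in cracked hulls and in Lost Hills by age came without replicate 2 of intact Lost Hills at 133 d, and for the difference between ages without replicate 3 of intact Golden Hills at 133 d. The 1 call at 91 d was Peroxidase 51. Under TPM scaling the all-gene median changed to -0.12 in tattered hulls and to -0.17 in Golden Hills by age, against 0.01 and -0.03 as deposited. Near the filter of 1 FPKM a gene of 1 kb holds few reads, which limits low members such as Peroxidase 53 and Peroxidase 55.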
